A study of Mus musculus with 6 samples.

Results

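The proximal chromosome 11 segment is a stretch of 45 Mb, from 11 to 56 Mb (GRCm39), of the mouse embryonic stem cell genome. It holds 5025 of the 259376 regions into which the peaks of 6 ATAC-seq libraries were merged, which is 1.94% of them. The other 11904 regions of chromosome 11 served as the comparison. The segment was chosen by summit heights in Alkbh5 KO against WT in these same libraries, so its KO against WT values are descriptions that carry no test. ATAC-seq uses a transposase to cut open DNA and insert adapters, and a peak is a place where cuts pile up.

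All libraries come from E14TG2a, a mouse embryonic stem cell line grown with LIF, a MEK inhibitor and a GSK3 inhibitor, with spike-in nuclei added before transposition. WT cells carry unedited Alkbh5, KO cells carry a knockout of Alkbh5, and del-cIDR cells carry an Alkbh5 allele that lacks a stretch named cIDR, with 2 libraries per genotype. ALKBH5 removes N6-methyladenosine from RNA. The number of clones behind each genotype is not in the labels, and neither is the culture each replicate came from, so replicate spread may be technical.

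The height of an ATAC-seq summit depends on how open the site is and on how many copies of the DNA are present. No library of unselected DNA is used here, so these cannot be told apart, and neither can the edited allele and the cell line that carries it. As background from the known mouse map, the proximal part of chromosome 11 carries Egfr, Meis1, Bcl11a, the alpha globin genes, Npm1, Ebf1, Rack1 and the Il4, Rad50 and Csf2 genes. These span a growth factor receptor, transcription factors of development and blood, red cell globins, a nucleolar protein, a ribosomal scaffold, cytokines and a DNA repair factor. In the gene order of RefSeq's GRCm38.p6 table they follow one another in this sequence. Alkbh5 itself lies on the same chromosome, after all of them in that order, between Myo15 and Llgl1. That table is of another build than the peaks, so no region was assigned to a gene, and neither the promoter of Alkbh5 nor those of stem cell markers were checked.

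Peak lists held 150680 to 193905 mouse peaks per library, the WT lists being the longest, and the lowest background against which a peak was called was 1.0147 to 1.26 tags. A tag is 1 unit of the pileup at a summit, and total reads are not analysed here. Calls were therefore read as shares of a list or beside the share over all regions, and heights relative to each list's own median over the 16 autosomes other than 6, 8 and 11, named the reference autosomes here.

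Within their lists, the KO libraries had more of their peaks in the segment. WT replicates 1 and 2 had 3416 and 3249 peaks there, KO had 3591 and 3337, and del-cIDR had 2775 and 2734. As a share of all mouse peaks this was 1.76% ± 0.0031 in WT, 2.20% ± 0.024 in KO and 1.76% ± 0.0038 in del-cIDR (SD, n = 2). Both KO libraries were above the other libraries, and del-cIDR did not stand apart from WT. The rule chose the segment by KO against WT heights, and taller summits are called more often. The larger KO share therefore gives the segment no separate support. The rest of chromosome 11 held 4.82% ± 0.096, 4.77% ± 0.028 and 4.91% ± 0.0078 of the lists, in the same order of genotypes (SD, n = 2). KO peaks in the segment covered 1.32 ± 0.038 Mb, against 1.16 ± 0.040 Mb in WT and 1.06 ± 0.0023 Mb in del-cIDR (SD, n = 2). Outside the segment on chromosome 11, the KO lists were shorter than WT, with 7883 and 7155 peaks against 9213 and 9035. Of the tallest 10% of each list, 2.53% and 2.65% lay in the segment in KO, while WT had 1.81% and 1.75% and del-cIDR 1.73% and 1.79%.

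Calls were shared as follows. Of the 5025 members, 1878 (37.4%) were called in all 6 libraries, 1338 (26.6%) in 1 library only, and the others in between. Across all merged regions the corresponding shares were 38.3% and 25.2%. Both WT libraries called 2634 members (52.4%, against 57.9% of all regions). Both KO libraries called 2688 (53.5%, against 47.8%), and both del-cIDR libraries called 2202 (43.8%, against 48.6%). The KO share thus lay above that of all regions, and the WT and del-cIDR shares below. On the rest of the chromosome WT had 62.2%, del-cIDR 53.3% and KO 51.0%.

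Gained members, with a call in each KO library and none in WT, numbered 224, or 4.46%, against 1.89% of all regions and 1.61% on the rest of chromosome 11. Lost members, with a call in each WT library and none in KO, numbered 177, or 3.52%, against 7.22% of all regions and 7.26% on the rest of the chromosome. Because the rule used KO against WT heights and taller summits are called more often, these counts give no separate support for the segment. With 150680 peaks taken from every list, the counts became 381 (8.47%, against 4.03% of all regions) and 90 (2.00%, against 4.73%). Leaving out 1 WT or KO library asks for fewer calls, or for fewer missing calls, and so raises the counts. KO calls missing from WT then numbered 388 without WT replicate 1, 347 without WT replicate 2, 606 without KO replicate 1 and 677 without KO replicate 2. WT calls missing from KO numbered 420, 490, 378 and 261 in the same order. Shares over all regions were not counted with a library left out, so these counts cannot be set against the background.

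The del-cIDR cells showed no such shift. Against WT, del-cIDR gained 48 members by the same definition (0.955%), against 0.931% of all regions. It lost 254 (5.05%), against 5.33% of all regions. Both shares are near the background. Set directly against del-cIDR, KO had calls in 358 members (7.12%, against 3.5% of all regions) where del-cIDR had none. The reverse held for 85 members (1.69%, against 3.59%). Since KO heights helped to choose the segment, the counts of KO against del-cIDR give it no separate support either.

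**Figure D1:**
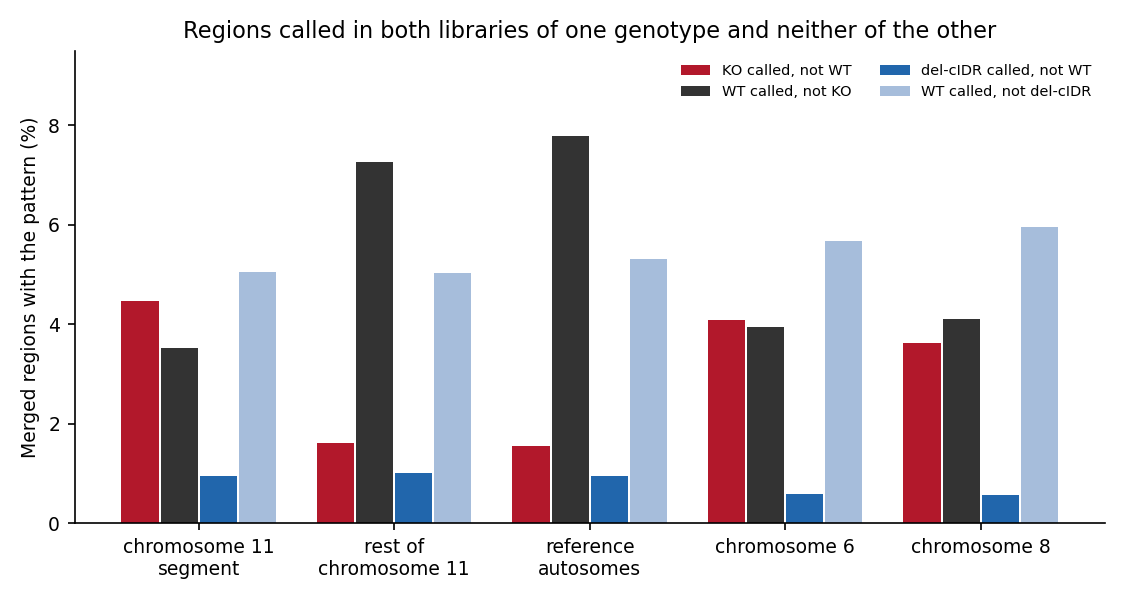
Share of merged regions (vertical axis, %) that had calls in each library of one genotype and none in another, for the chromosome 11 segment, the rest of chromosome 11, the reference autosomes and chromosomes 6 and 8; each bar is 1 pattern. In the segment the bar for KO and not WT stands at 4.46% and that for WT and not KO at 3.52%, whereas on the rest of the chromosome they stand at 1.61% and 7.26%.

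Members that changed their calls were mostly low, as such regions were on the reference autosomes. The 224 members gained in KO had a median height of 10.5 tags, and 17 of them (7.59%) reached the median height of both KO lists. On the reference autosomes, regions gained in KO had a median of 10 tags, and 5.996% reached it. The 177 members lost in KO had a median of 11.5 tags in WT, and 20 (11.3%) reached the median of both WT lists. Reference regions lost in KO had a median of 12.5 tags, and 13.1% reached it. Of the 224, 150 (66.96%) were called in no del-cIDR library, 49 in 1 and 25 in both. Over all regions gained in KO, 62.7% were called in no del-cIDR library, so this split was near the background. Of the 177, 81 (45.8%) were called in no del-cIDR library, 53 in 1 and 43 in both, where the share over all regions lost in KO was 36.7%. A missing call can be an open site below the calling limit.

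The tallest gained member, chr11:22804734-22805091, had 53 and 69 tags in the KO libraries and no call in WT or del-cIDR. It was followed by chr11:48746371-48746551, with 57 and 44 tags in KO, and chr11:50103931-50104117, with 62 and 37, also called in KO alone. These last 2 are narrow, at 181 and 187 bp, against a median width of 317 bp for a member. Not every tall gain was missing from del-cIDR: chr11:20406421-20406571 had no WT call, and KO had 35 and 31 tags there and del-cIDR 28 and 24.

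The tallest lost member, chr11:28532188-28532551, had no call in KO, where WT had 35 and 53 tags and del-cIDR 34 and 29. At chr11:52249433-52249660, WT stood at 34 and 39 tags, and del-cIDR at 54 and 50. All 5 of the tallest lost members were called in at least 1 del-cIDR library, so each was missing from the KO libraries and not from both mutants.

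Heights were compared over the 1878 members called in all libraries. The tag pileup at each summit was solved from the deposited fold and p, and log2 heights were centred on the reference autosomes of the same list. The median member stood at -0.05 and -0.04 in WT replicates 1 and 2, at -0.05 and 0.00 in del-cIDR, and at 0.38 and 0.40 in KO. The KO libraries lay far above the others, and WT and del-cIDR did not separate. On the rest of chromosome 11, the medians over 5088 regions were 0.21 and 0.22 in WT. KO had 0.24 and 0.26 there, and del-cIDR had 0.17 and 0.22. That part of the chromosome is taller than the segment in WT, and the segment was taller than it in KO.

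Taken region by region, the difference KO minus WT had a median of 0.52 log2 in the segment, 0.11 on the rest of chromosome 11 and 0.09 on the reference autosomes. The reference is not at 0 by this measure because the centre of each list was set on heights and not on differences. Relative to it, the segment was 0.43 log2 higher in KO than in WT, a factor of 1.35, and the rest of the chromosome 0.021. Single pairs of libraries gave 0.42 to 0.44 relative to the reference in the segment, the lowest for KO replicate 1 against WT replicate 1 and the highest for KO replicate 2 against WT replicate 2. Replicates of one genotype differed by -0.0089 (WT), 0.0089 (KO) and 0.00 (del-cIDR) on the same scale.

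The del-cIDR libraries were not used by the rule, although WT was. Their difference from WT in the segment was 0.032 log2, which is 0.0094 above the reference autosomes, and on the rest of the chromosome it was 0.027. With 2 libraries against 2, an exact two-sided test cannot give a p below 0.333, so none was run. KO minus del-cIDR gave 0.50 in the segment against 0.080 on the reference autosomes. KO heights helped to choose the segment, so this contrast gives it no separate support.

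**Figure D2:**
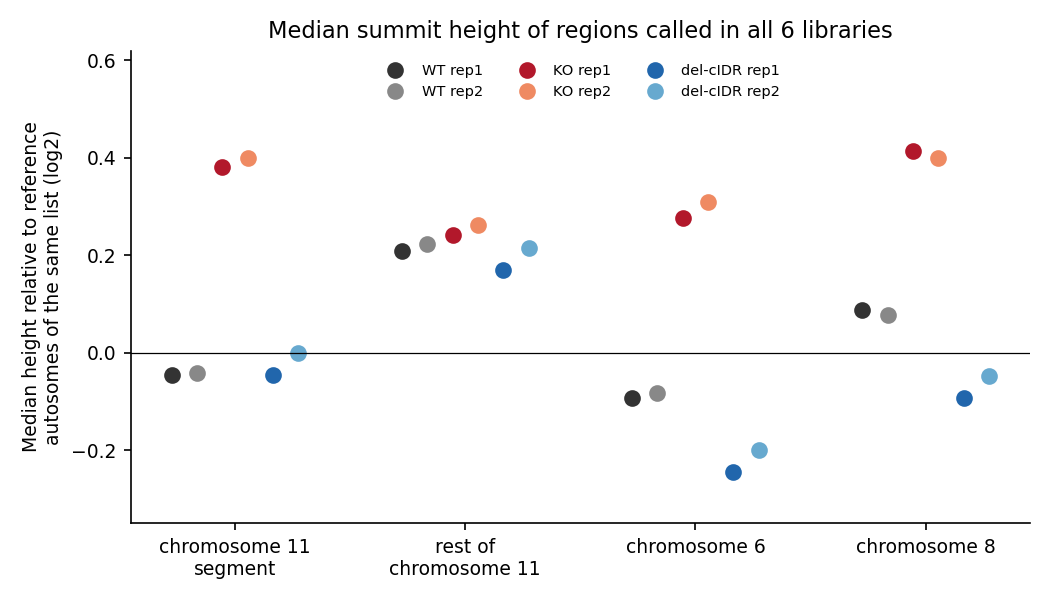
Median log2 summit height relative to the reference autosomes of the same list (vertical axis) in the segment, the rest of chromosome 11 and chromosomes 6 and 8; each point is 1 library. The KO points of the segment stand at 0.38 and 0.40, above WT at -0.05 and -0.04, while on the rest of chromosome 11 all 6 libraries lie from 0.17 to 0.26.

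Most members were higher in KO. The difference KO minus WT was above 0 in 84.2% of the 1878 members, against 61.4% on the rest of the chromosome. Heights in both KO libraries exceeded both WT libraries in 1315 members (70.0%), against 40.6% of the 99146 regions tested, and fell below both in 145 (7.72%), against 20.6%. For del-cIDR the same counts were 446 above (23.7%, against 22.9%) and 357 below (19.01%, against 21.3%). The KO difference had quartiles of 0.20 and 0.79 in the segment and of -0.16 and 0.33 on the rest of the chromosome.

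**Figure D3:**
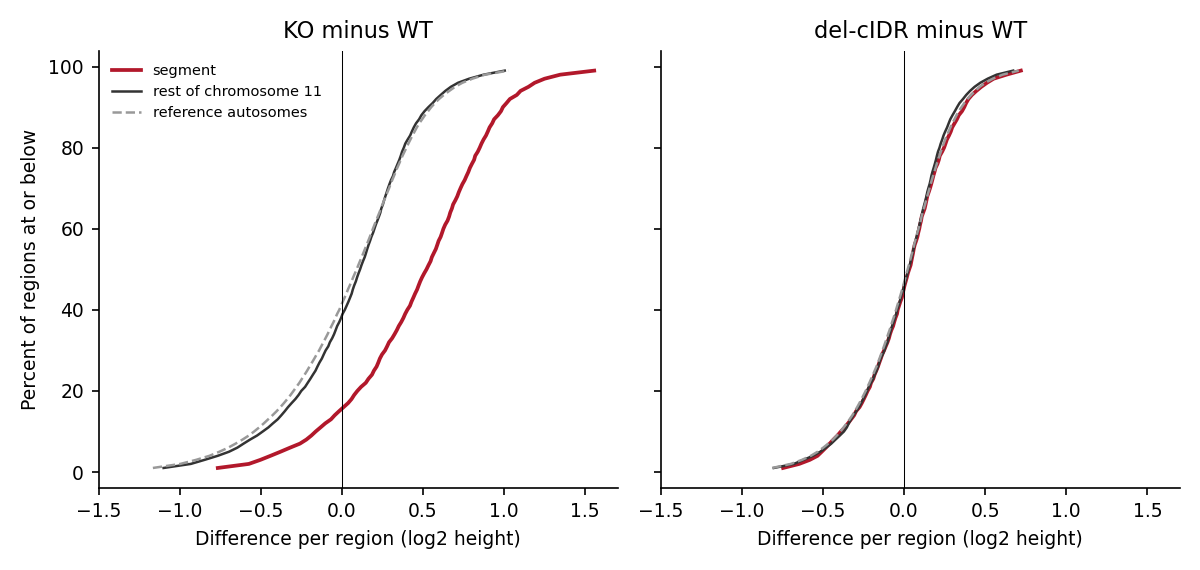
Cumulative share of regions (vertical axis, %) by log2 height difference (horizontal axis) for KO minus WT and del-cIDR minus WT; each line is the segment, the rest of chromosome 11 or the reference autosomes. The KO curve of the segment lies to the right, with a median of 0.52 against 0.11 and 0.09, and the del-cIDR curves lie on one another.

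The tallest members were all higher in both KO libraries. The tallest in WT, chr11:23205203-23206286, had 270 and 310 tags in WT, and del-cIDR had 293 and 277. The KO libraries had 481 and 418 there, a difference from WT of 0.87 log2 after centring. At chr11:55359810-55360879 WT had 261 and 317 tags, KO reached 528 and 412, and del-cIDR had 295 and 327. In each of the 10 tallest members, the centred KO difference lay between 0.64 and 0.98 log2, and that of del-cIDR between 0.086 and 0.29. Reference regions also varied with WT height: KO minus WT was 0.29 log2 in the lowest of 10 strata, -0.024 in the fourth and 0.26 in the tallest.

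The segment was therefore compared with the reference autosomes stratum by stratum. In these strata, whose median WT height ran from 12.2 to 139 tags, the segment was 0.29 to 0.52 log2 above the reference in KO minus WT. The lowest value was in the lowest stratum. On the rest of chromosome 11 the corresponding range was -0.015 to 0.059, and for del-cIDR minus WT in the segment it was -0.030 to 0.097. The segment thus stood above the reference in every stratum by more than the rest of the chromosome did. As KO against WT heights chose the segment, this is a description and not separate support.

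**Figure D4:**
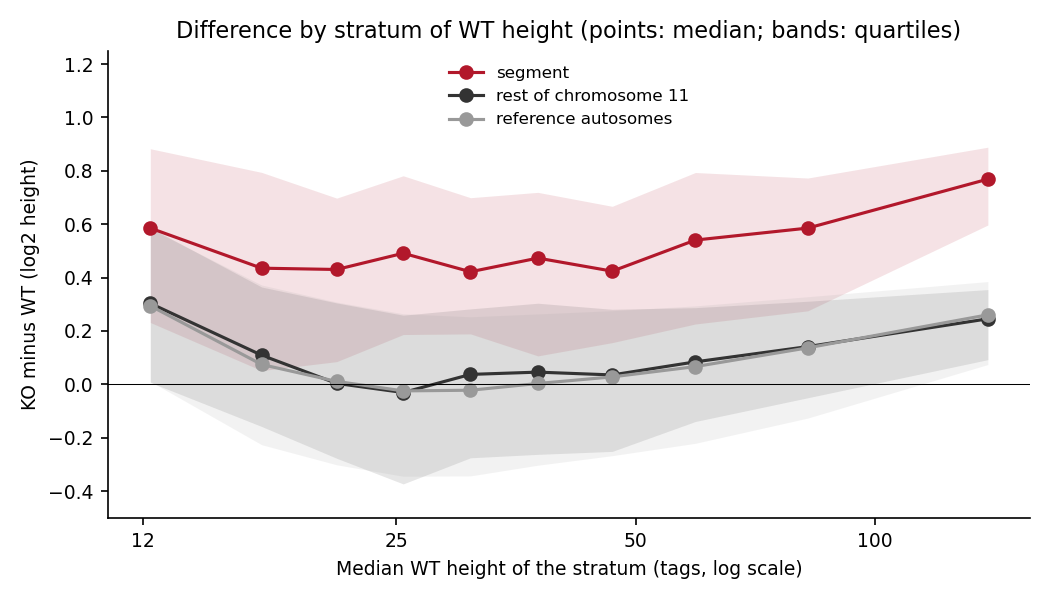
KO minus WT difference (vertical axis, log2 height) against the median WT height of 10 strata (horizontal axis, tags, log scale) for the segment, the rest of chromosome 11 and the reference autosomes; points are medians and bands are quartiles. The line of the segment runs 0.29 to 0.52 above that of the reference, and the other lines lie close together.

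Width and spacing gave a like picture. Relative to reference regions of the same width, KO minus WT was 0.36 log2 in 83 members up to 250 bp wide, 0.40 in 655 wider ones up to 500 bp, 0.45 in 911 up to 1000 bp and 0.46 in 229 above that. By distance to the nearest other region it was 0.42 in 729 members within 2 kb, 0.43 in 994 from 2 to 10 kb and 0.48 in 155 beyond 10 kb. Narrow, wide, crowded and isolated members all stood above the reference. The width is that of the merged region, to which KO peaks contribute. These classes split the heights that chose the segment, so they give it no separate support.

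The local background around the summits was raised as well. A deposited fold sets the summit against a background that is at a library-wide minimum for some peaks and higher, and so local, for the rest. Centred in the same way, the median local background of the 1878 members was -0.10 and -0.11 log2 in WT, 0.38 in both KO libraries and -0.08 in both del-cIDR libraries. On the rest of chromosome 11 it was 0.40 in both WT libraries and 0.44 in both KO libraries. Per region, KO minus WT was 0.49 log2 in the segment and 0.15 on the reference autosomes. The background includes cuts from the summit itself and from peaks near it.

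The deposited fold differed much less than the tag height. Its median in the segment relative to the reference autosomes was -0.053 and -0.030 log2 in WT. It was -0.026 and -0.0025 in del-cIDR, and 0.12 and 0.14 in KO. Per region, the difference KO minus WT was 0.15 log2 in the segment, 0.071 on the rest of chromosome 11 and 0.057 on the reference autosomes. Summit and local background were thus both higher in KO, and the deposited fold differed by a smaller amount. This fold is not their plain ratio, because it has a constant added to the summit and to the background. With a background of few tags, the constant lessens the part that a change in background plays. Among the 1878 members called in all libraries, peaks were also wider in KO. Their centred log2 width was 0.13 ± 0.0029, against -0.054 ± 0.0057 for WT and -0.066 ± 0.026 for del-cIDR (SD, n = 2). The per-region difference KO minus WT was 0.106 log2, against 0.011 on the reference autosomes. With all segment peaks taken, the KO median widths of 293 and 306 bp lay below their list medians of 296 and 310 bp. WT had 279 and 268 bp (lists 274 and 270 bp), while del-cIDR had 302 and 304.5 bp (lists 300 and 305 bp).

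Along the chromosome the raised level formed a plateau. In the 9 blocks of 5 Mb that make up the segment, KO minus WT ran from 0.47 log2 (21 to 26 Mb, 208 members) to 0.56 (51 to 56 Mb, 376 members). KO replicate 1 gave 0.40 to 0.53 over the blocks and KO replicate 2 gave 0.45 to 0.58. The del-cIDR differences of the same blocks were -0.0082 to 0.10. In bins of 1 Mb with at least 20 regions, the 35 bins of the segment ran from 0.28 to 0.67, and the 68 bins of the rest from -0.15 to 0.47. These ranges overlap through 1 bin of the rest, from 9 to 10 Mb, which lies just outside the proximal border. The next highest bin outside, from 57 to 58 Mb, stood at 0.25, below all 35.

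**Figure D5:**
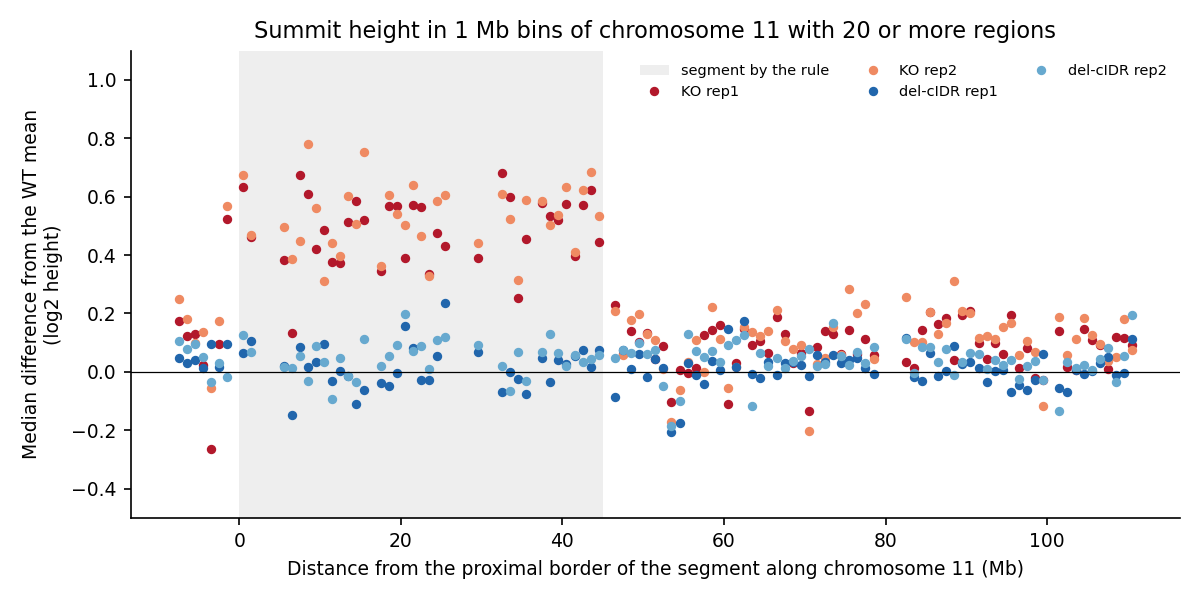
Median log2 height difference from the WT mean (vertical axis) in 1 Mb bins with 20 or more regions, against the distance from the proximal border of the segment (horizontal axis, Mb); each point is 1 bin of 1 mutant library and the shaded band is the segment. KO points stand high across the 45 Mb band, except 0.13 for KO replicate 1 in 1 bin, and in 1 bin before it. The del-cIDR points run from -0.21 to 0.24 over these bins.

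The borders of 11 and 56 Mb are round numbers, and the data place the change less exactly. A step with 2 edges, fitted by least squares to the per-region differences of chromosome 11, put the proximal edge at 8.92 Mb and the distal edge at 55.92 Mb, a length of 47.0 Mb. For KO replicate 1 alone the edges were 8.91 and 55.92 Mb, and for KO replicate 2 alone 8.92 and 57.67 Mb. The distal edge was thus at 57.67 Mb without KO replicate 1, and at 57.66 Mb with least absolute deviations on the mean of both. With least absolute deviations, the proximal edge of KO replicate 2 was 11.04 Mb against the WT mean and 8.92 Mb against either WT library alone.

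Values near the proximal border did not form a single step. From 8.5 to 9 Mb, 43 regions called in all libraries had a median KO minus WT of 0.094 log2, from 9 to 9.5 Mb 20 regions had 0.46, and from 9.5 to 10 Mb 10 regions had 0.47. From 10 to 10.5 Mb 8 regions had 0.30, and from 10.5 to 11 Mb 6 regions had -0.030. Inside, 13 regions from 11 to 11.5 Mb had 0.44 and 35 from 11.5 to 12 Mb had 0.68. The stretch from 10 to 11 Mb holds few regions, so the level there rests on 14 of them.

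Single regions at that border were as mixed. Just outside, chr11:10989271-10989857 had 20 and 21 tags in WT and 16 and 15 in KO. Just inside, chr11:11000676-11001060 had 12 and 16 tags in WT and 10 and 12 in KO, and chr11:11038190-11038600 had 24 and 29 against 23 and 12. The third member, chr11:11048281-11048870, had 130 and 172 tags in WT and 178 and 168 in KO, a difference of 0.45 log2 after centring.

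At the distal border the level was lower in some steps and higher again in 1. It was 0.59 log2 in 46 regions from 55 to 55.5 Mb and 0.27 in 28 from 55.5 to 56 Mb. Outside, it was 0.17 in 8 regions from 56 to 56.5 Mb and 0.18 in 4 from 56.5 to 57 Mb. It was 0.36 in 20 from 57 to 57.5 Mb, 0.17 in 52 from 57.5 to 58 Mb and -0.066 in 26 from 58 to 58.5 Mb. The last member, chr11:55998500-55999039, stood at 44 and 45 tags in WT. KO had 51 and 36 there, and del-cIDR 37 and 32. The one before it, chr11:55983537-55984227, went the other way, from 59 and 40 tags in WT to 23 and 16 in KO. Just outside, chr11:56007326-56008146 had 30 and 39 tags in WT and 38 and 22 in KO. The next, chr11:56022015-56022575, was higher in KO, with 37 and 33 tags against 19 and 26 in WT (0.89 log2 after centring). The one after it, chr11:56039660-56040137, had 14 and 15 tags in WT and 16 and 10 in KO.

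With flanks drawn at the fitted edges, which were chosen from these same heights, the 50 regions from 8.9 to 11 Mb had a median of 0.39 log2 and the 53 regions from 56 to 57.7 Mb one of 0.35. Beyond them, the 466 regions from 3 to 8.9 Mb stood at 0.11 and the 4519 from 57.7 Mb to the end at 0.11. The proximal flank held 7 regions gained in KO (4.90% of its regions, against 1.89% of all regions) and 5 lost (3.497%, against 7.22%). The distal flank held 6 gained (3.53%, against 1.89%) and 12 lost (7.06%), the latter share being near the 7.22% of all regions. These shares rest on few regions.

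A minority of members were lower in KO. The 145 with both KO heights below both WT heights had a median KO difference of -0.45 log2. Their median WT height was 35.9 tags, against 32.5 tags for the 1878. It was 36.5 tags in the 1315 with both KO heights above, and 23.3 tags in the 418 that overlapped. Members without overlap were thus the taller ones in either direction. At chr11:52501630-52502064 WT had 45 and 46 tags, del-cIDR 35 and 37, and KO 13 and 12. It belongs to the only run of 3 or more neighbouring members, among the 1878, in which both KO heights lay below both WT heights, from 52470415 to 52502064. How often such runs occur outside the segment was not counted, so this run is not shown to be unusual. At chr11:49549647-49550679, WT had 117 and 148 tags, KO 62 and 39, and del-cIDR 112 and 128. After centring, del-cIDR differed from WT by -0.23 log2 at the first of these and by -0.028 at the second. Over the 145 members its median difference from WT was -0.15, against 0.032 over the 1878 and 0.068 over the 1315. These members were picked by the same WT heights, which pulls any difference from WT the same way. The values therefore do not show that del-cIDR shared the KO change.

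At the other end, the largest difference was at chr11:50851936-50852698, where WT had 7 and 17 tags, del-cIDR 18 and 17, and KO 53 and 31. The next, chr11:26257491-26257898, held 15 and 11 tags for WT, 20 and 19 for del-cIDR and 56 and 37 for KO. Both start from low WT heights, and the WT replicates of the first differ by more than a factor of 2.

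Chromosomes 6 and 8, which were kept out of the reference, were compared with the segment. Relative to the reference autosomes, KO minus WT was 0.36 log2 on chromosome 6 and 0.33 on chromosome 8, against 0.43 in the segment. Both KO heights exceeded both WT heights in 65.4% and 64.2% of their regions, against 70.0% of the members. In del-cIDR they differed from the segment, since chromosome 6 stood at -0.092 and chromosome 8 at -0.14 relative to the reference, and the segment at 0.0094. Regions called in KO and not WT made up 4.09% and 3.62% there, against 4.46% of the members. Those called in KO and not del-cIDR made up 7.55% and 7.15%, against 7.12%. Per region, KO minus WT in local background was 0.398 and 0.395 log2, against 0.493 in the segment. In deposited fold it was 0.146 and 0.127, against 0.152, and in peak width 0.102 and 0.085, against 0.106. These raised values were thus not particular to the segment.

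In content the segment was sparser than the remainder of its chromosome. It held 112 regions per Mb against 161, with a median width of 317 bp against 339 bp and a median distance to the nearest region of 2.55 kb against 2.14 kb. Over all merged regions the width was 315 bp and the distance 2.54 kb, so the rest of chromosome 11, and not the segment, stood apart from the genome in spacing.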

How the data were processed

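Each library has its own deposited peak list, and replicates were not pooled. The build was GRCm39, per the submitters' processing notes, which list MACS2, BWA, fastp, Picard, SAMtools and featureCounts. Versions, settings and a shift of reads to the cut site were not given in the sources used here. Column 7 is the deposited fold, a ratio of summit pileup to background with a constant added to each. Columns 8 and 9 are the deposited −log10 p and −log10 q. The deposited score was not used. Total reads are not analysed here.

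Under the MACS2 form of fold and p, 100% of summit pileups came out whole (tolerance 0.1), which gave the tags and local background of each peak. Peaks on the sequence dm were left out as spike-in. Overlaps of 1 bp or more were merged, and a region took the tallest peak of each library. Solver and step fit were tested on simulated data (Python 3.11.15, SciPy 1.17.1). Genome-wide shares stand beside the members' counts, and regions on one chromosome are not independent. The members and lists were chosen with earlier results of these data known. Named regions were the 10 tallest members, the 5 tallest gained and lost, the 3 largest and smallest differences, and 3 on each side of each border. The planned gene lists, marker check, GC and motifs were not run, because the gene table is of another build.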

Additional observations from a re-analysis of the deposited data

Results flagged for a closer look

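At the last member before the distal border, chr11:55998500-55999039, both KO libraries lay above both WT libraries after centring, and both del-cIDR libraries below them. KO minus WT was 0.19 log2. Before centring, the KO tags of 51 and 36 lay on either side of the 44 and 45 in WT. Over all regions, KO lay above WT in 40.6% and del-cIDR below WT in 21.3%. The joint pattern was sought among the named regions only, and its share over all regions was not counted. This difference between the mutants was not tested.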

How the results depend on the processing

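The segment's KO minus WT difference of 0.52 log2 kept its direction in every setting run. It was 0.43 as a ratio of median heights, 0.49 with the rest of chromosome 11 as reference, 0.47 with all autosomes, 0.49 with lists of equal length and 0.15 with the deposited fold. It was 0.43 with the median difference of the reference regions subtracted, a setting chosen after seeing the data, and 0.48 to 0.53 with 1 library left out. The del-cIDR minus WT difference of 0.032 became 0.055 with the rest of chromosome 11 as reference, 0.077 with all autosomes, 0.072 over regions of the 4 compared libraries, 0.055 at −log10 q of at least 5, 0.054 at 50% overlap and 0.0094 with the reference subtracted, and 0.035 to 0.066 with 1 library left out. On the rest of chromosome 11, the KO difference of 0.11 became, in the order of these settings, 0.036 as a ratio of medians, 0.076 and 0.057 with the other references, 0.14 over 4 libraries, 0.087 for regions of at least 20 tags, 0.071 with the fold, 0.086 at equal length and 0.021 with the reference subtracted, and 0.079 to 0.11 with 1 library left out. Members gained and lost in KO numbered 381 and 90 with lists of equal length, which shortens WT most, and 225 to 677 and 177 to 490 with 1 library left out. Shares over all regions were not counted with a library left out. The proximal edge was 8.39 Mb and the distal edge 57.83 Mb with the fold, the distal edge 57.66 Mb with least absolute deviations, and with 1 library left out they ran from 8.907 to 8.916 Mb and from 55.92 to 57.67 Mb. The cause of these moves was not tested. No paired analysis was possible because none of the results comes from a test, so there is no fit to which a replicate block could be added. As plain differences before the reference is subtracted, KO minus WT was 0.49 log2 between the libraries numbered 1 and 0.55 between those numbered 2. Gained and lost members had median heights of 10.5 and 11.5 tags, so a missing call there may be a site below the calling limit.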
